A study of Mus musculus with 6 samples.

Results

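Genes for copying DNA and for entering S phase, the part of the cell cycle in which the genome is copied, were compared between 3 genotypes of mouse muscle satellite cells. The set comprised 43 genes taken by name from the 54123 genes counted in these libraries, and all 43 were among the 17084 genes that passed the filter on low counts. By role it held 10 origin licensing genes, 6 helicase activation genes and 6 polymerase and primase subunits. A further 6 encode the sliding clamp, its loader and a single-strand binding protein, and 2 join Okazaki fragments. The rest were 5 genes of deoxynucleotide supply, 3 regulators of S phase entry, 4 genes of chromatin assembly and histone supply, and 1 fork checkpoint gene.

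Satellite cells are the stem cells of skeletal muscle. They were sorted by flow cytometry from the tibialis anterior and gastrocnemius muscles of adult C57BL/6 mice 30 h after injection of cardiotoxin, a venom protein that destroys muscle fibres, and total RNA was sequenced. The genotypes were Jmjd3 KO, a knockout of the histone demethylase gene Kdm6b, Utx KO, a knockout of the related gene Kdm6a, and Tdt control, which the title of the study calls wild-type. Each genotype had 2 libraries, and all 6 carried the injury and the sort. The sources used here name no Cre driver and do not say whether animals were pooled or whether replicates came from separate mice, so p-values measure only the spread between these libraries, which may be technical.

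Replication starts at origins that were licensed in advance. The origin recognition complex, Cdc6 and Cdt1 load the ring-shaped MCM2 to MCM7 helicase onto DNA, and Cdc45, the GINS complex and Mcm10 turn that ring into a running helicase as S phase begins. Most genes of this machinery are transcribed late in G1 under E2F factors, which cyclin E kinases help to release from the retinoblastoma protein. Quiescent satellite cells hold little of it, and after muscle injury they leave quiescence and begin to cycle.

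The libraries held 53750675 to 77675388 estimated reads, and each member had between 379 and 47818 reads in every library. The labels could be checked on the targeted genes: Kdm6a was at 7.68 and 7.38 CPM (a count relative to its library total, scaled by a TMM factor) in Utx KO against 32.9 and 34.0 in Tdt control, with a log2 fold change of -2.15 ± 0.06 (SE, adjusted p = 1.02e-05). Kdm6b was at 15.9 and 16.5 CPM in Jmjd3 KO against 29.9 and 22.7 in Tdt control, a smaller difference of -0.70 ± 0.12 (adjusted p = 0.0243). The satellite cell marker Pax7 lay between 134 and 148 CPM in all 6 libraries, but other satellite cell markers differed between groups. At an adjusted p under 0.05 in edgeR, 1 of 10 such markers was higher and 1 lower in Jmjd3 KO against Tdt control. Of all genes, 1.97% were higher and 1.03% lower. In Utx KO against control 2 markers were higher and 1 lower, beside 0.790% and 0.925% of all genes. In Jmjd3 KO against Utx KO 1 marker was higher and 3 were lower, beside 5.13% and 2.89%. Markers of other cells in injured muscle differed between groups: 15 neutrophil markers summed to 256 to 331 CPM in Jmjd3 KO, 169 to 183 in Tdt control and 217 to 250 in Utx KO, and 15 mature fibre markers to 7974 to 8282, 6127 to 6462 and 5567 to 6670. The sums of 15 macrophage and monocyte markers were 338 to 372, 253 to 300 and 223 to 259 CPM. In the same order of groups, 10 fibro-adipogenic markers summed to 452 to 460, 413 to 446 and 378 to 385 CPM. Sums of 10 endothelial markers were 68 to 83, 75 to 81 and 58 to 64 CPM. Those of 8 mural markers were 400.5 to 422.0, 391.9 to 402.7 and 371.9 to 378.1 CPM. No defining marker was at 0 in every library, but 2 neutrophil markers, Ly6g and Camp, and 9 of 10 lymphoid markers stayed under 0.1 CPM. In Jmjd3 KO against Tdt control, edgeR called 5 of 13 tested neutrophil, 3 of 15 mature fibre and 2 of 15 macrophage and monocyte markers higher. It called 0 of them lower. No fibro-adipogenic, endothelial or mural marker was called there. In Jmjd3 KO against Utx KO the counts of the first 3 lists were 3, 6 and 9 higher and 0 lower. Of all genes, 1.97% and 5.13% were higher in these 2 comparisons. The part of these markers in the results below was not tested.

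In Jmjd3 KO the replication genes sat slightly below Tdt control almost throughout in TMM-scaled CPM, with no single gene past the edgeR test. The fitted log2 fold change was below 0 for 42 of 43 members, where 50.9% of all genes tested were below 0. The median over members was -0.14, beside -0.005 over all genes, and the range ran from -0.38 for Ccne2 to 0.03 for Pold1. Both Jmjd3 KO libraries lay below both Tdt control libraries for 38 members, a pattern that 25.5% of all genes tested showed. For 1 member, Pold1, they lay above, as for 26.2% of all genes, and for 4 members the groups overlapped. None of the 43 passed an adjusted p of 0.05 in edgeR's quasi-likelihood test, where 1.03% of all genes passed as lower and 1.97% as higher. At an unadjusted p under 0.05, 22 members were lower and none higher, and 8.93% of all genes were lower. With DESeq2, 4 members passed, Mcm3, Mcm7, Pole and Rfc4, all lower, against 2.90% of the genes it tested. The members were measured in the same libraries, so counts of members are not counts of independent observations. In bulk RNA, fewer cells in S phase, less of these transcripts per cell and more RNA from other cells cannot be told apart.

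**Figure D1:**
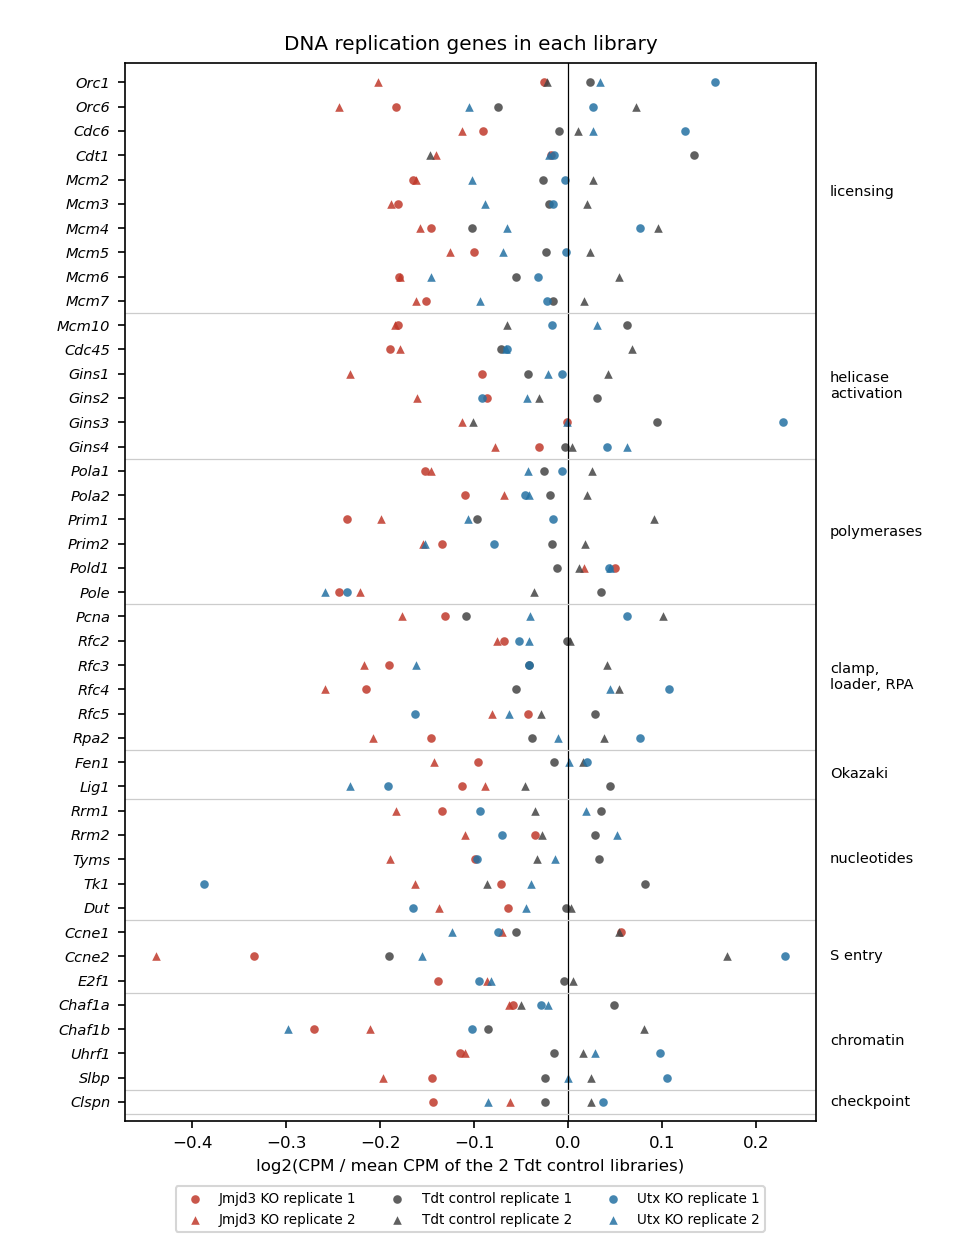
The 43 genes (rows, by role) in each library, as log2 of CPM over the mean of the 2 Tdt control libraries; circles are replicate 1 and triangles replicate 2, coloured by genotype. The Jmjd3 KO points lie left of both Tdt control points for 38 genes, and the Utx KO points mix with the control points for 25.

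In Utx KO the same genes spread to both sides of Tdt control. The log2 fold change was below 0 for 29 members and above 0 for 14, with a median of -0.04 beside -0.002 over all genes; 50.6% of all genes tested were below 0. Both Utx KO libraries lay below both control libraries for 13 members, against 23.3% of all genes, above them for 5, against 22.3%, and overlapped with them for 25. No member passed the edgeR test, where 0.925% of all genes passed as lower and 0.790% as higher, and 2 were lower at an unadjusted p under 0.05, as were 8.54% of all genes. These were Pole and Lig1, which DESeq2 called as lower, with 2.58% of the genes it tested.

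Between the 2 knockouts, Jmjd3 KO was the lower for most members. The log2 fold change of Jmjd3 KO over Utx KO was below 0 for 37 of 43 members, where 49.7% of all genes were below 0, with a median of -0.10 beside 0.001. Both Jmjd3 KO libraries were below both Utx KO libraries for 28 members, above them for 2 and overlapping for 13; of all genes tested 28.6% lay below and as many above. Rfc4 and Uhrf1 passed the edgeR test, both lower in Jmjd3 KO, where 2.89% of all genes passed as lower and 5.13% as higher. With these 2 included, 12 members were lower at an unadjusted p under 0.05, as were 11.9% of all genes. DESeq2 called 6 members as lower, with 5.38% of the genes it tested. The 3 comparisons share libraries, so their values are set side by side and are not independent of each other.

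**Figure D2:**
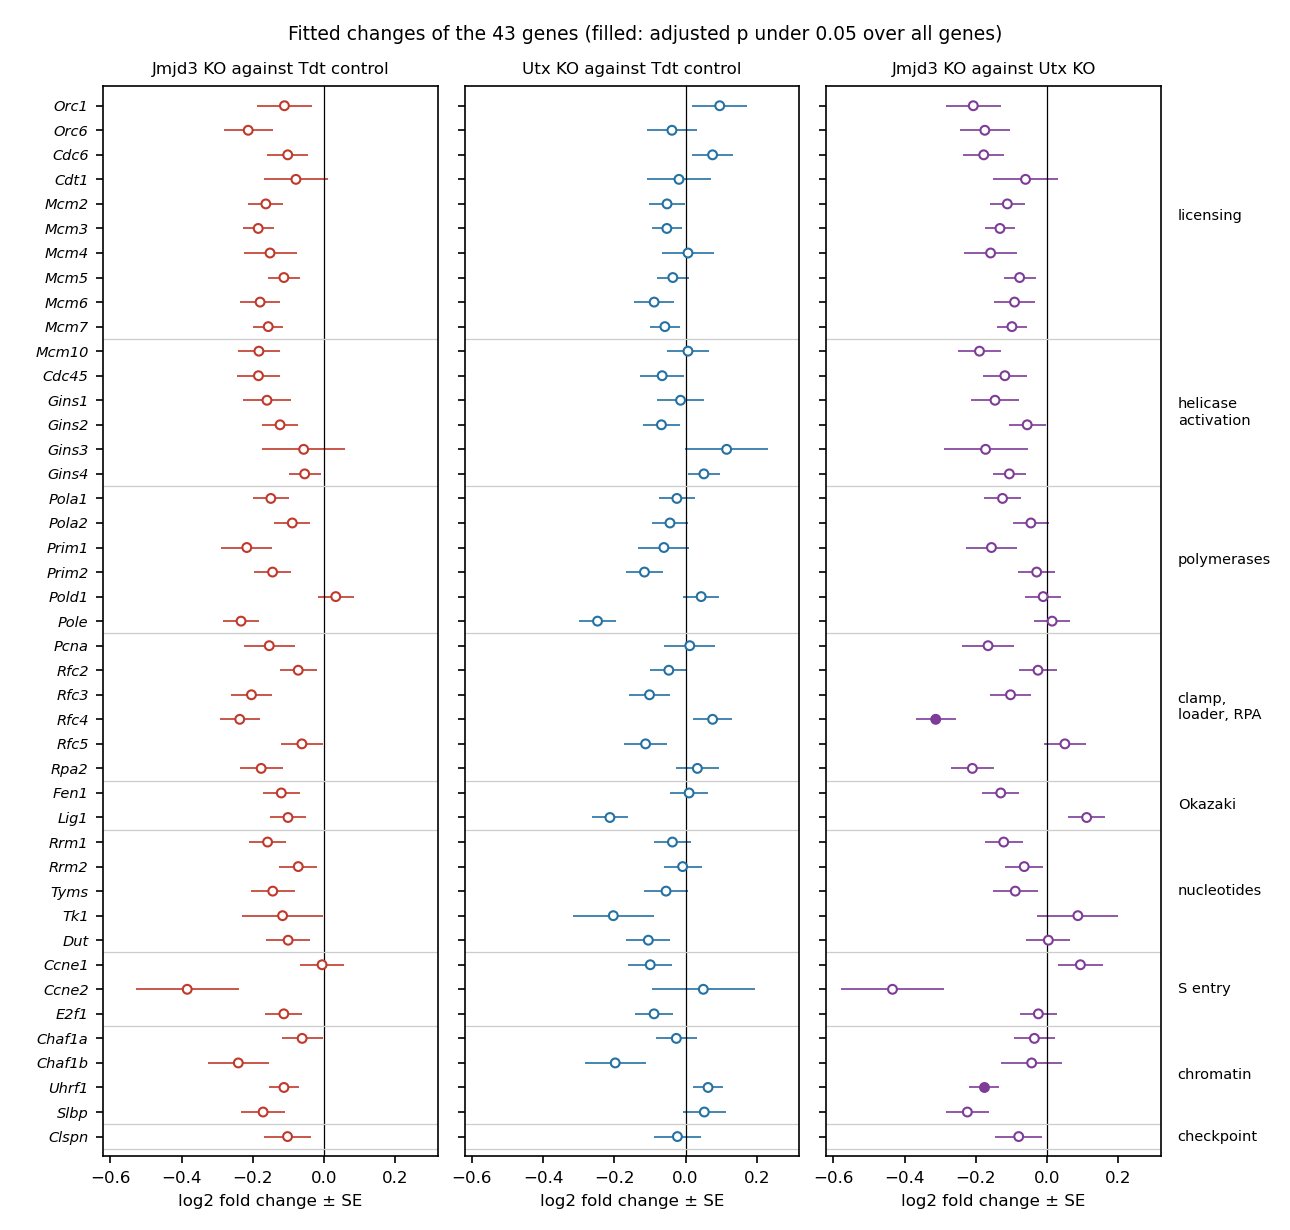
Fitted log2 fold change of each of the 43 genes with its SE as a bar, in the 3 comparisons; filled points passed an adjusted p of 0.05 over all 17084 genes. Only Rfc4 and Uhrf1 in Jmjd3 KO against Utx KO are filled, while 42 points in the Jmjd3 KO against Tdt control panel lie below 0.

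**Figure D3:**
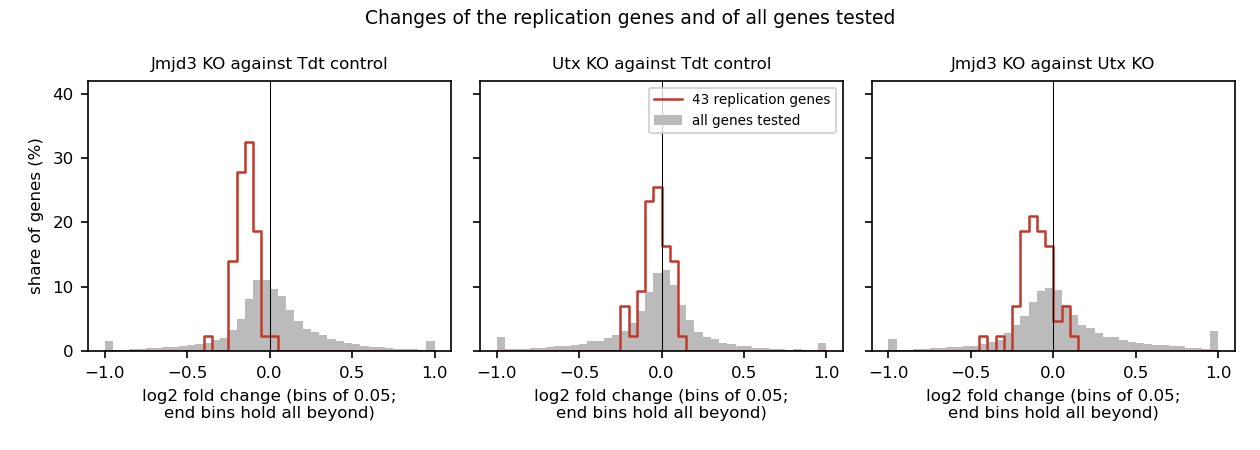
Share of genes (%) by log2 fold change in bins of 0.05, for all genes tested (grey bars) and for the 43 replication genes (red line); the end bins hold all genes beyond. The red line is centred at a median of -0.14 in Jmjd3 KO and -0.04 in Utx KO against Tdt control.

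The size of the shift can be read library by library. Taking each member's deviation from its mean log2 CPM over the 6 libraries, the median deviation was -0.07 and -0.09 in the Jmjd3 KO libraries, 0.03 and 0.07 in the Tdt control libraries and 0.05 and 0.01 in the Utx KO libraries. The pooled SD between the 2 libraries of a group was 0.02 on this scale. Summed over the 43 genes, the level was 6310 and 6212 CPM for Jmjd3 KO, 6807 and 6969 for Tdt control, and 6789 and 6631 for Utx KO. Both Jmjd3 KO sums were thus below the other 4. A Jmjd3 KO library was the lowest of the 6 for 34 members, 9 in replicate 1 and 25 in replicate 2, and the highest for 2. The same count was not taken over all genes, so it has no background share.

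Of the origin licensing genes, all 10 had a log2 fold change below 0 in Jmjd3 KO against Tdt control, with a median of -0.15. None passed the adjusted test, and 6 were lower at an unadjusted p under 0.05, as were 8.93% of all genes. Among the licensing genes, the MCM2 to MCM7 genes, which encode the subunits of the replicative helicase ring, were the most even. All 6 had both Jmjd3 KO libraries below both Tdt control libraries and below both Utx KO libraries, with medians of -0.16 and -0.11. Of all genes tested, 25.5% and 28.6% lay so. Against control this was not particular to them, as the 6 clamp, loader and single-strand binding genes did the same. Mcm3 (ENSMUSG00000041859.10, GRCm38 chr1:20802968-20820312, minus strand) stood at 450 and 448 CPM in the Jmjd3 KO libraries, at 503 and 517 in the controls and at 504 and 480 in the Utx KO libraries. Its Jmjd3 KO libraries were the lowest 2 of the 6, a fitted difference of -0.18 ± 0.04 (edgeR adjusted p = 0.066) from Tdt control and -0.13 ± 0.04 (adjusted p = 0.107) from Utx KO.

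The other MCM subunits repeated this order. Mcm7 was at 453 and 449 CPM in both Jmjd3 KO libraries, 497 and 509 in those of Tdt control and 495 and 471 in those of Utx KO, with a log2 difference from control of -0.16 ± 0.04 (adjusted p = 0.0981). Mcm2 was at 314 and 314 CPM, 345 and 358, and 351 and 328 in the same order of groups, and its difference from control was -0.16 ± 0.05 (adjusted p = 0.127). Mcm6 was at 325 and 326 CPM, 355 and 383, and 361 and 333, which gave -0.18 ± 0.06 (adjusted p = 0.141). In each of these 3 genes the Jmjd3 KO libraries nearly coincided, while the Tdt control and Utx KO libraries overlapped for Mcm2 and Mcm6 and lay apart for Mcm7. Mcm4 and Mcm5 differed from control by -0.15 and -0.11.

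The loaders of the ring were less uniform. Orc6, the smallest subunit of the origin recognition complex, was at 48.8 and 46.8 CPM in the Jmjd3 KO libraries, at 52.6 and 58.2 in the controls and at 56.4 and 51.5 in the Utx KO libraries, with a log2 difference of -0.21 ± 0.07 from control (adjusted p = 0.149). Orc1, the subunit whose level follows the cell cycle, was at 18.5 and 16.4 CPM in both Jmjd3 KO libraries, 19.1 and 18.5 in those of Tdt control and 21 and 19.3 in those of Utx KO. Its Jmjd3 KO libraries lay below the others, replicate 1 only barely below Tdt control replicate 2, and most clearly below Utx KO (-0.21 ± 0.08, adjusted p = 0.148). Cdc6, the ATPase that helps to load MCM rings, was at 77.3 and 76.1 CPM in the Jmjd3 KO libraries, at 81.7 and 82.9 in the controls and at 89.7 and 83.8 in the Utx KO libraries, which set its Utx KO libraries highest. The difference was -0.10 ± 0.06 (adjusted p = 0.38) from control and -0.18 ± 0.06 (adjusted p = 0.108) from Utx KO.

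Cdt1, the loading partner of Cdc6 that is destroyed once S phase starts, was the 1 licensing gene whose Jmjd3 KO and Tdt control libraries overlapped. It stood at 46.9 and 43.1 CPM in both Jmjd3 KO libraries, 52.1 and 42.9 in those of Tdt control and 47.0 and 46.8 in those of Utx KO. The 2 control libraries enclosed all the others, and the log2 difference of -0.08 ± 0.09 (adjusted p = 0.681) between Jmjd3 KO and control was 0.07 without Tdt control replicate 1.

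Helicase activation genes followed the same direction in Jmjd3 KO, all 6 below 0 with a median of -0.14. None passed the adjusted test, and 4 were lower at an unadjusted p under 0.05, beside 8.93% of all genes. In Utx KO their median was -0.004, with 3 above and 3 below 0. Mcm10, which helps to start the helicase, was at 59.7 and 59.6 CPM in the Jmjd3 KO libraries, at 70.7 and 64.7 in the controls and at 66.9 and 69.2 in the Utx KO libraries. Both Jmjd3 KO libraries were below the other 4, by -0.18 ± 0.06 from control (adjusted p = 0.151) and -0.19 ± 0.06 from Utx KO (adjusted p = 0.101). Cdc45, a core subunit of the running helicase, was at 61.2 and 61.7 CPM in both Jmjd3 KO libraries, 66.5 and 73.2 in those of Tdt control and 66.7 and 66.7 in those of Utx KO, a difference from control of -0.18 ± 0.06 (adjusted p = 0.153). Of the GINS subunits, which complete that helicase, Gins1 and Gins2 were at -0.16 and -0.12 in Jmjd3 KO against control, Gins4 was at -0.05, and Gins3, the least expressed member, was at -0.06 with overlapping groups.

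Among polymerase and primase subunits, 5 of 6 were below 0 in both knockouts, with medians of -0.15 in Jmjd3 KO and -0.05 in Utx KO. Pole (ENSMUSG00000007080.14, chr5:110286306-110337474, plus strand), the catalytic subunit of the leading-strand polymerase, was the member with the smallest p in each comparison with control. It stood at 144 and 146 CPM in the Jmjd3 KO libraries, at 175 and 166 in the controls and at 145 and 142 in the Utx KO libraries, so that all 4 knockout libraries lay below both control libraries and overlapped with each other. The log2 difference was -0.23 ± 0.05 (adjusted p = 0.0582) in Jmjd3 KO and -0.25 ± 0.05 (adjusted p = 0.0668) in Utx KO, a level lower by about 15% in each, and 0.01 ± 0.05 between the knockouts. The authors' deposited tables give log2 fold changes of -0.19 (adjusted p = 0.0192) and -0.16 (adjusted p = 0.0641) for the same gene.

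Priming genes differed less. Prim1, the catalytic primase subunit, was at 51.0 and 52.2 CPM in both Jmjd3 KO libraries, 56.1 and 63.9 in those of Tdt control and 59.3 and 55.7 in those of Utx KO, with a log2 difference of -0.22 ± 0.07 (adjusted p = 0.153) from control in Jmjd3 KO, which was -0.11 without Tdt control replicate 2. Prim2, its partner, was at 54.8 and 54.0 CPM, 59.4 and 60.8, and 56.9 and 54.1, which placed both knockouts below control: -0.14 ± 0.05 (adjusted p = 0.175) in Jmjd3 KO and -0.12 ± 0.05 (adjusted p = 0.323) in Utx KO. Pola1, the catalytic subunit that extends the primers, was at 124 and 125 CPM in the Jmjd3 KO libraries, at 136 and 141 in the controls and at 138 and 134 in the Utx KO libraries. Only its Jmjd3 KO libraries stood apart, by -0.15 ± 0.05 (adjusted p = 0.165) from control. Pold1, the lagging-strand catalytic subunit, had no lower level in Jmjd3 KO, at 116 and 113 CPM in both Jmjd3 KO libraries, 111 and 113 in those of Tdt control and 115 and 115 in those of Utx KO, a difference of 0.03 ± 0.05 (adjusted p = 0.77) in Jmjd3 KO. Its sign was not stable: the difference was -0.02 with transcript length offsets, and it was -0.02 in the authors' deposited table, so that all 43 members were below 0 in both.

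The clamp and its loader held the clearest difference between the knockouts. Rfc4 (ENSMUSG00000022881.15, chr16:23113943-23127737, minus strand), a small subunit of the replication factor C clamp loader, was at 39.9 and 38.7 CPM in the Jmjd3 KO libraries, at 44.5 and 48.1 in the controls and at 49.9 and 47.8 in the Utx KO libraries. Its Jmjd3 KO libraries lay below the other 4, and Tdt control and Utx KO overlapped. It was lower in Jmjd3 KO than in Utx KO by a log2 fold change of -0.31 ± 0.06 (edgeR adjusted p = 0.0184), or 19.5%, and differed from Tdt control by -0.24 ± 0.06 (adjusted p = 0.0684). The call against Utx KO ended with transcript length offsets (adjusted p = 0.0555) and without any 1 library of Jmjd3 KO or Utx KO (adjusted p from 0.0535 to 0.143), while the fold change stayed between -0.34 and -0.26.

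The other loader subunits had other orders of groups than Rfc4. Rfc3 was at 46.6 and 45.7 CPM in both Jmjd3 KO libraries, 51.6 and 54.7 in those of Tdt control and 51.6 and 47.5 in those of Utx KO, with a log2 difference of -0.20 ± 0.06 (adjusted p = 0.112) from control in Jmjd3 KO and -0.10 ± 0.06 (adjusted p = 0.45) in Utx KO. Rfc5 was at 74.9 and 73.0 CPM, 78.7 and 75.6, and 68.9 and 73.9, with its lowest library in Utx KO, and Rfc2 differed from control by -0.07 and -0.05 in the Jmjd3 KO and Utx KO groups. All of these subunits work in the same pentameric loader.

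Pcna (ENSMUSG00000027342.14, chr2:132249162-132253314, minus strand), the sliding clamp that tethers polymerases to DNA, was at 384 and 372 CPM in the Jmjd3 KO libraries, at 390 and 451 in the controls and at 439 and 408 in the Utx KO libraries. The Jmjd3 KO libraries were the lowest, but the 2 control libraries were farther apart than the groups, and the log2 difference of -0.15 ± 0.07 (adjusted p = 0.288) became -0.256 when Tdt control replicate 1 was left out and -0.038 when replicate 2 was. Rpa2, a subunit of the protein that coats single-stranded DNA, was at 65.0 and 62.3 CPM in both Jmjd3 KO libraries, 70.0 and 73.9 in those of Tdt control and 75.9 and 71.4 in those of Utx KO. Its Jmjd3 KO libraries lay below all others, by -0.18 ± 0.06 (adjusted p = 0.166) from control and -0.21 ± 0.06 (adjusted p = 0.0797) from Utx KO.

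The 2 genes that finish Okazaki fragments differed in which genotype was lowest. Lig1 (ENSMUSG00000056394.17, chr7:13277283-13311433, plus strand), the ligase that seals the nicks, was at 201 and 204 CPM in the Jmjd3 KO libraries, at 224 and 210 in the controls and at 190 and 185 in the Utx KO libraries, lowest in both Utx KO libraries. Its log2 difference from control was -0.21 ± 0.05 (adjusted p = 0.103) in Utx KO and -0.10 ± 0.05 (adjusted p = 0.327) in Jmjd3 KO, and the knockouts differed by 0.11 ± 0.05 (adjusted p = 0.226). In the authors' deposited table for Utx KO it was the only member with an adjusted p under 0.05 (log2 fold change -0.17, adjusted p = 0.0188), where 2.23% of the genes in that table passed as lower. Fen1, the nuclease that trims the flaps, was at 99.7 and 96.5 CPM in both Jmjd3 KO libraries, 105 and 108 in those of Tdt control and 108 and 107 in those of Utx KO, lowest in the Jmjd3 KO libraries, and its difference from Utx KO was -0.13 ± 0.05 (adjusted p = 0.172).

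Genes of deoxynucleotide supply had medians of -0.12 in Jmjd3 KO and -0.05 in Utx KO, and all 5 were below 0 in each. Rrm1, the large subunit of ribonucleotide reductase, was at 396 and 382 CPM in the Jmjd3 KO libraries, at 445 and 423 in the controls and at 407 and 440 in the Utx KO libraries, with a log2 difference of -0.16 ± 0.05 (adjusted p = 0.158) from control in Jmjd3 KO. Rrm2, the small subunit that limits the enzyme in S phase, was at 602 and 572 CPM, 629 and 605, and 588 and 640. Its Jmjd3 KO libraries were below control by -0.07 ± 0.05 (adjusted p = 0.497) and interleaved with Utx KO. Tk1, which salvages thymidine, was at 73.4 and 68.9 CPM in both Jmjd3 KO libraries, 81.6 and 72.6 in those of Tdt control and 59.0 and 75 in those of Utx KO. The 2 Utx KO libraries of Tk1 lay farther apart than any 2 groups, and its difference of -0.20 ± 0.11 (adjusted p = 0.434) between Utx KO and control was -0.04 without Utx KO replicate 1. Tyms, which makes thymidylate, and Dut, which clears dUTP, differed from control by -0.14 and -0.10 in Jmjd3 KO and by -0.05 and -0.10 in Utx KO.

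The regulators of S phase entry differed in their order of groups. Ccne2 (ENSMUSG00000028212.16, chr4:11191351-11204779, plus strand), which encodes cyclin E2, was at 29.3 and 27.3 CPM in the Jmjd3 KO libraries, at 32.4 and 41.6 in the controls and at 43.4 and 33.2 in the Utx KO libraries. Both Jmjd3 KO libraries were below the other 4, which were themselves widely spread. This gave the largest fitted differences of any member and also the largest SE, -0.38 ± 0.14 (adjusted p = 0.201) from control and -0.43 ± 0.15 (adjusted p = 0.115) from Utx KO. The first was -0.56 without Tdt control replicate 1 and -0.19 without replicate 2, and the second -0.23 without Utx KO replicate 1 and -0.62 without replicate 2. In the authors' deposited table for Jmjd3 KO, Ccne2 had a log2 fold change of -0.33 and an adjusted p of 0.00315, and 4 members, all lower, were under 0.05, where 2.41% of the genes in that table passed as lower.

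Ccne1, encoding cyclin E1, was at 39.7 and 36.4 CPM in both Jmjd3 KO libraries, 36.8 and 39.7 in those of Tdt control and 36.3 and 35.1 in those of Utx KO. Jmjd3 KO and control overlapped fully, with a difference of -0.005 ± 0.06 (adjusted p = 0.975) whose sign turned under 4 of the alternatives, and Utx KO was the lowest at -0.10 ± 0.06 (adjusted p = 0.489). E2f1, the activator of replication genes, was at 67.3 and 69.7 CPM in the Jmjd3 KO libraries, at 73.8 and 74.3 in the controls and at 69.4 and 70.0 in the Utx KO libraries. All 4 knockout libraries were below both control libraries, by -0.11 ± 0.05 (adjusted p = 0.283) in Jmjd3 KO and -0.09 ± 0.05 (adjusted p = 0.461) in Utx KO.

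Among chromatin genes Uhrf1 (ENSMUSG00000001228.14, chr17:56303321-56323486, plus strand), which brings the maintenance DNA methyltransferase to new DNA, was at 453 and 455 CPM in both Jmjd3 KO libraries, 486 and 496 in those of Tdt control and 525 and 500 in those of Utx KO. The groups did not overlap in any comparison. Uhrf1 was lower in Jmjd3 KO than in Utx KO by a log2 fold change of -0.18 ± 0.04 (edgeR adjusted p = 0.0465), or 11.5%. Against control it was at -0.11 ± 0.04 (adjusted p = 0.199) in Jmjd3 KO and 0.06 ± 0.04 (adjusted p = 0.515) in Utx KO. The call against Utx KO ended without any 1 of the 6 libraries (adjusted p from 0.0582 to 0.23), and with transcript length offsets (adjusted p = 0.0743), upper-quartile scaling (adjusted p = 0.0529) or the 4 libraries alone (adjusted p = 0.059).

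Slbp, which binds the stem-loop of histone mRNAs, was at 71.3 and 68.8 CPM in the Jmjd3 KO libraries, at 77.5 and 80.2 in the controls and at 84.8 and 78.8 in the Utx KO libraries. Its order of groups was that of Uhrf1, with -0.17 ± 0.06 (adjusted p = 0.179) from control and -0.22 ± 0.06 (adjusted p = 0.0693) from Utx KO in Jmjd3 KO. Chaf1b, a subunit of the assembly factor that sets histones on new DNA, was at 77.6 and 80.8 CPM in both Jmjd3 KO libraries, 88.2 and 99 in those of Tdt control and 87.1 and 76.1 in those of Utx KO. Both knockouts lay below control, by -0.24 ± 0.08 (adjusted p = 0.176) in Jmjd3 KO and -0.20 ± 0.08 (adjusted p = 0.309) in Utx KO, the latter from -0.30 to -0.10 without 1 library, lowest without Utx KO replicate 1 and highest without replicate 2. Chaf1a, its larger partner, and Clspn, the adaptor of the fork checkpoint, were at -0.06 and -0.10 in Jmjd3 KO and at -0.03 and -0.02 in Utx KO.

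Short words bound by E2F factors were more frequent in the promoters of the members than in promoters at large. RefSeq promoter windows (GRCm38.p6, from 250 bases before to 50 after the start) were matched for 35 of 43 members, with none used for Gins1, Gins2, Gins4, Ccne2, Mcm4, Prim2, Rfc2 and Pole. The words searched on both strands were TTTCCCGC, TTTCGCGC, TTTGGCGC and TTTGCCGC, which can overlap. They occurred in 14 of 35 genes and in 35.0% of the 40 windows of these genes, compared with 2.26% of all 32851 windows and 3.74% of the windows of tested genes. Of the 20 words found, 12 had their centre within 100 bases of the start, and 5 genes held more than 1 in the same window. CCAAT, the NF-Y box, was in 57.5% of member windows, 37.4% of all windows and 37.2% of the windows of tested genes. TTTGAA or TTCGAA, the element found in mitotic promoters, was in 15% of member windows, 19.2% of all windows and 14.0% of the windows of tested genes. A word is a match of letters, not a bound site.

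The 250 bases before the start are shown for Mcm6, which held most words, for Pola1, and for Uhrf1 and Rfc4, the members that passed the edgeR test. Each runs 5′ to 3′ on the strand of the gene, with E2F words in capitals. Mcm6 (chr1:128359706-128359955, minus strand) has a compound stretch of overlapping words that begins 110 bases before the start and a single word at 47. Pola1 (chrX:93632156-93632405, minus strand) has a word at 138. Of 2 RefSeq starts of Uhrf1, the one shown (chr17:56304063-56304312, plus strand) has a word at 185, and the other has none. Rfc4 (chr16:23127731-23127980, minus strand) has none of the words searched.
Mcm6: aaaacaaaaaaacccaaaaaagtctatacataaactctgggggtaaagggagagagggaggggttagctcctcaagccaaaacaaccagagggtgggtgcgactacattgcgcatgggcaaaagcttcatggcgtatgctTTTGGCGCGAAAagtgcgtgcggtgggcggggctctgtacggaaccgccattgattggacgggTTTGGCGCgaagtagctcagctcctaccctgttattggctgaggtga
Pola1: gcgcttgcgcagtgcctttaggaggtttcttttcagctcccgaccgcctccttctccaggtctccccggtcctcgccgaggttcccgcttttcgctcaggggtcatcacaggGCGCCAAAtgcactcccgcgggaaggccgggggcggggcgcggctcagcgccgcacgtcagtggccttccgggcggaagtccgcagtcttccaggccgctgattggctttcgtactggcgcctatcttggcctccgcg
Uhrf1: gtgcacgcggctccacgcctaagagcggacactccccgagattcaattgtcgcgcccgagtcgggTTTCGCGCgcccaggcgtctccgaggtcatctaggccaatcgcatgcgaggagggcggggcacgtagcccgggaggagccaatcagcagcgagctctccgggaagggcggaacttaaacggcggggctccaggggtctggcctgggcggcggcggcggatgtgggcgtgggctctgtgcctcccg
Rfc4: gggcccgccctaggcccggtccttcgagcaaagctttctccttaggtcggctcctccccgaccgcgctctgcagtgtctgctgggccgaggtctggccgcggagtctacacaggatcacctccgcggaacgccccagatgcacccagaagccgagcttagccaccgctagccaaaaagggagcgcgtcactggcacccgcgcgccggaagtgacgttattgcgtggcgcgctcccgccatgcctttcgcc

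Per transcript length, the members spanned a wide range in Tdt control. Pcna was highest at 266 and 309 TPM (transcript abundance, which also divides by transcript length), followed by Rrm2 at 241 and 237, Mcm7 at 124 and 135 and Mcm3 at 99.4 and 113. At the bottom were Chaf1a at 10.5 and 9.70 TPM, Orc1 at 5.12 and 5.11 and Gins3 at 2.08 and 1.77. The top 3 did not overlap with their neighbours in this order, whereas Mcm3 overlapped with Dut below it, and Uhrf1 with Mcm5. Pcna was thus 149 times the level of Gins3, and no member moved by more than 1 rank when reads per kilobase replaced TPM.

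**Figure D4:**
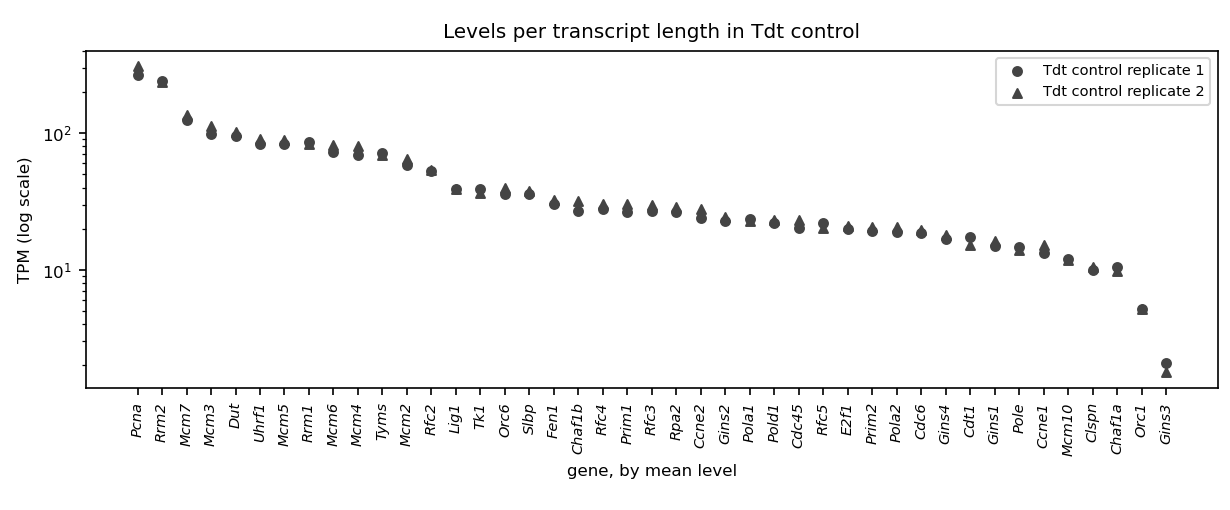
TPM (log scale) of the 43 genes in the 2 Tdt control libraries, ordered by mean. Levels run from 287 for Pcna to 1.92 for Gins3, and the 2 libraries nearly coincide for most genes.

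Replicates of 1 group also differed in the levels of cell cycle genes, and the members did not all follow the same side. Cell cycle phase was not measured, and the counts below were not taken over all genes. Summed CPM of 40 G2 and mitosis genes was 5247 and 4193 in the Tdt control libraries, 4138 and 4959 in Utx KO and 4833 and 4970 in Jmjd3 KO. All 40 were lower in replicate 2 than in replicate 1 of Tdt control, with a median log2 difference of -0.37, and all 40 were higher in replicate 2 of Utx KO, with a median of 0.28. Licensing genes lay on the other side, with 8 of 10 higher in replicate 2 of Tdt control and 0 of 10 in replicate 2 of Utx KO. Of all 43 members, Ccne2, a regulator of S phase entry, was the most extreme on this side, at 0.36 in Tdt control and -0.39 in Utx KO. The 5 deoxynucleotide genes instead went with the mitotic genes, 1 of 5 and 5 of 5 higher, led by Tk1 at -0.17 and 0.35.

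**Figure D5:**
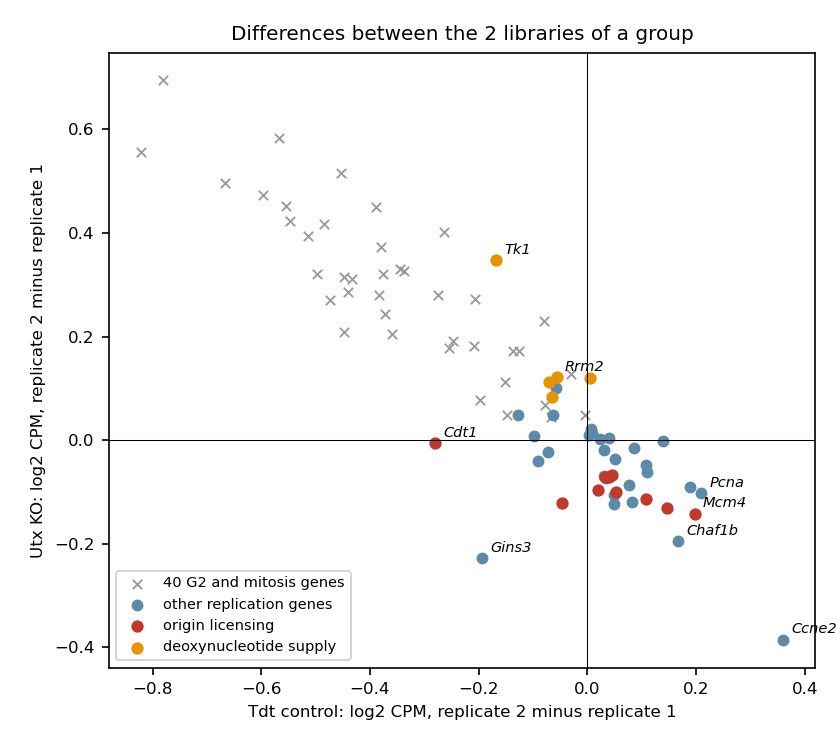
Log2 CPM of replicate 2 minus replicate 1 in Tdt control (x) and Utx KO (y) for the 43 replication genes, coloured by role, and 40 G2 and mitosis genes (crosses). All crosses lie at the upper left, licensing genes mostly at the lower right, and Tk1 beside the crosses.

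Between genotypes these mitotic genes gave no stable direction. None of the 40 passed the edgeR test in any comparison. At an unadjusted p under 0.05, 1 was lower in each comparison and 1 was higher in Jmjd3 KO against Utx KO. Of all genes, 8.93% (Jmjd3 KO against control), 8.54% (Utx KO against control) and 11.9% (between knockouts) were lower. DESeq2 called 1, in Jmjd3 KO against Utx KO, with 12.4% of the genes it tested. In the same order, edgeR without a low-count filter called 4, 3 and 2, with 6.01%, 4.49% and 9.16% of all genes. The median of the mitotic genes was 0.03 in Jmjd3 KO against Tdt control. It was 0.21 when Tdt control replicate 1 was left out and -0.13 when replicate 2 was. The median of the 43 replication genes was -0.13 and -0.12 without these same libraries.

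A further 63 genes of replication and S phase were examined as context for the members. In Jmjd3 KO against Tdt control 57 of them were below 0, against 50.9% of all genes, with a median of -0.13. Of the 63, 3 fell and 1 rose, beside 1.03% and 1.97% of all genes. Brip1, a repair helicase, fell from 33.1 and 33.8 CPM to 25.5 and 27.0 (log2 fold change -0.35 ± 0.05, edgeR adjusted p = 0.0165). Cdc25a, the phosphatase that activates Cdk2, fell from 46.5 and 42.3 to 35.7 and 31.8 CPM (-0.40 ± 0.07, adjusted p = 0.0311), and Chek1, a checkpoint kinase, fell from 29.6 and 31.2 to 25.4 and 24.7 CPM (-0.28 ± 0.05, adjusted p = 0.0365). Pold4, a small subunit of the polymerase that holds Pold1, rose from 37.7 and 39.5 to 49.8 and 44.9 CPM (0.29 ± 0.06, adjusted p = 0.0496).

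None of these 63 passed in Utx KO against control with edgeR or DESeq2, and their median was -0.02. At an unadjusted p under 0.05 in edgeR, 4 were lower and 1 higher, where 8.54% of all genes were lower. Brip1, Chek1 and Pold4 also passed between the knockouts, with Jmjd3 KO lower by -0.38 ± 0.05 (adjusted p = 0.00757) and -0.29 ± 0.05 (adjusted p = 0.0188) and higher by 0.30 ± 0.06 (adjusted p = 0.0264). Without any 1 of the 6 libraries the number called in Jmjd3 KO against control was 0 to 1, from 4 with all 6. Transcript length offsets ended the calls of Brip1, Chek1 and Pold4 in both comparisons (adjusted p from 0.102 to 0.422).

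Upstream of the members, 12 regulators of G1 were examined. In Jmjd3 KO Ccnd2, a cyclin that partners the G1 kinases, fell from 14.8 and 14.0 CPM to 8.77 and 8.46 (log2 fold change -0.74 ± 0.07, edgeR adjusted p = 0.00374), and Cdk6, one of those kinases, fell from 290 and 282 to 211 and 241 CPM (-0.34 ± 0.07, adjusted p = 0.0454). The kinase inhibitors Cdkn1b and Cdkn2d rose in both knockouts. Cdkn1b went from 24.6 and 24.8 CPM in Tdt control to 31.4 and 31.1 in Jmjd3 KO (0.34 ± 0.05, adjusted p = 0.0118) and 32 and 31.5 in Utx KO (0.36 ± 0.05, adjusted p = 0.0182). Cdkn2d went from 12.3 and 12 CPM to 17.9 and 16.7 (0.51 ± 0.07, adjusted p = 0.0141) and 16.4 and 17.8 (0.49 ± 0.07, adjusted p = 0.0263). Cdkn1c, another inhibitor, rose in Utx KO from 4.78 and 4.18 to 7.35 and 10.7 CPM (1.01 ± 0.18, adjusted p = 0.0396), and was lower in Jmjd3 KO than in Utx KO (-0.97 ± 0.18, adjusted p = 0.0191). Ccnd2 was also lower in Jmjd3 KO than in Utx KO, where it was at 14.5 and 15.5 CPM (-0.80 ± 0.07, adjusted p = 0.00178).

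The inhibitor Cdkn1a had the opposite order to Cdkn1c. It was at 202 and 202 CPM in the Jmjd3 KO libraries, at 188 and 182 in the controls and at 164 and 159 in the Utx KO libraries, with no overlap between groups. It was higher in Jmjd3 KO than in Utx KO (log2 fold change 0.32 ± 0.05, edgeR adjusted p = 0.0104), and differed from control by 0.13 ± 0.05 (adjusted p = 0.204) in Jmjd3 KO and -0.20 ± 0.05 (adjusted p = 0.107) in Utx KO. In all, 2 of the 12 rose and 2 fell in Jmjd3 KO, beside 1.97% and 1.03% of all genes. In Utx KO 3 rose and 0 fell, beside 0.790% and 0.925% of all genes. Between the knockouts 1 was higher and 2 were lower in Jmjd3 KO, beside 5.13% and 2.89% of all genes.

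Of these calls, those of Ccnd2 held without any 1 library, and the others did not. Against control in Jmjd3 KO, Cdkn1b and Cdkn2d lost theirs without any 1 library of either group (adjusted p from 0.0589 to 0.122 and from 0.0517 to 0.124), and Cdk6 without any library but Jmjd3 KO replicate 2 (0.0667 to 0.202). In Utx KO, Cdkn1b and Cdkn2d lost theirs without any 1 of the 6 libraries (adjusted p from 0.0568 to 0.117 and from 0.0581 to 0.106), and Cdkn1c without any but Utx KO replicate 1 (0.0796 to 0.141). Between the knockouts, the call of Cdkn1a ended without any 1 of their 4 libraries (adjusted p from 0.0556 to 0.0691), and that of Cdkn1c without either Jmjd3 KO library or Utx KO replicate 2 (0.051 to 0.113).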

How the data were processed

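Estimated counts and TPM per transcript were deposited by the authors for 6 libraries; per the submitters' processing notes, the tools were cutadapt 2.6, Salmon 1.1.0 and DESeq2 1.28.1 and the builds mm10 and GRCm38, with no roles given. The authors' deposited tables of log2 fold changes, p-values and adjusted p-values were copied as given; their mean normalised count, a signal column by the authors, was used only to check the matching of genes. Estimated counts were summed per gene with GENCODE M21 (139864 of 140748 transcripts matched; 0.151 to 0.175% of reads did not) and rounded. Salmon divides reads shared between similar transcripts, which makes near-identical copies uncertain. edgeR 4.0.16 (R 4.3.3) was fitted to all 6 libraries with TMM scaling, filterByExpr, 1 mean per genotype and the quasi-likelihood test, with Benjamini-Hochberg adjustment over 17084 genes; the biological coefficient of variation was 0.0844. CPM are TMM-scaled. The procedure was tested on simulated data.

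Per-library values are given for members with an adjusted p under 0.05, for the 12 with the smallest p in each comparison and for 8 preset genes; Pold1, other members outside this rule and the G1 regulators were named after their values were seen. The members and lists were chosen with earlier results of these data known. Alternatives covered scaling, filters, DESeq2 1.42.0, length offsets, gene biotype, the replicate block and leaving out libraries. No sample or value column was left out.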

Additional observations from a re-analysis of the deposited data

How the results depend on the processing

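The median of the members stayed below 0 in all alternatives, none of which used TPM. Without 1 library it ran from -0.16 to -0.12 in Jmjd3 KO against Tdt control and from -0.06 to -0.02 in Utx KO against Tdt control. Between the knockouts it ran from -0.14 to -0.079. Members called in these 3 comparisons numbered 0, 0 and 2 as reported. Without a low-count filter they numbered 6, 2 and 6, beside 6.01%, 4.49% and 9.16% of all genes, higher and lower together. With DESeq2 they numbered 4, 2 and 6, beside 7.27%, 4.77% and 12.4% of the genes it tested. With protein-coding genes only they numbered 1, 1 and 4, beside 4.54%, 2.66% and 11.2%. With at least 5 CPM in 2 libraries they numbered 1, 1 and 2, beside 5.2%, 2.85% and 11.8%. Between the knockouts they numbered 1 with upper-quartile scaling, 0 with length offsets, 1 with the 4 libraries alone, and 0 to 1 without 1 library, where both other comparisons gave 0.

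The other 63 replication genes called against control in Jmjd3 KO numbered 4 as reported, 13 without a filter, 10 with DESeq2, 2 with length offsets, 7 with protein-coding genes, 2 with the 4 libraries alone and 0 to 1 without 1 library; between the knockouts they numbered 3, 12, 7, 0 with length offsets, 8 with the 4 libraries alone and 0 to 7 without 1 library. In Utx KO none was called without 1 library. All genes called numbered 513, 293 and 1370 as reported; 1872, 1399 and 2856 without a filter; 330, 131 and 790 with length offsets; 1041 and 656 in the comparisons with control with DESeq2; 119 in Utx KO with the 4 libraries alone; and 113 to 434, 16 to 96 and 291 to 1387 without 1 library.

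In Jmjd3 KO against control, the sign of Pold1 turned to -0.0239 with length offsets, and that of Gins3 without Tdt control replicate 1. Signs turned for Cdt1, which ran from -0.204 to 0.067 without 1 library (0.067 without Tdt control replicate 1). They turned for Ccne1 to 0.0023 without a filter and 0.0041 with at least 5 CPM, and its range without 1 library was -0.072 to 0.058. E2F words on the given strand alone were in 20% of member genes and CCAAT in 34.3%, against 40% and 60% on both; a strand limit can only lower these shares. The cause of the other differences was not tested.

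The labels do not say what replicate numbers share. Over all genes tested, same-numbered deviations correlated at -0.01 (Jmjd3 KO and Tdt control), -0.008 (Jmjd3 KO and Utx KO) and -0.05 (Tdt control and Utx KO). Over the members the values were 0.20, -0.08 and -0.59. They cannot settle whether the numbers pair the libraries, since the 2 deviations of a group mirror each other. With the replicate block, members called were 0, 0 and 1, the other replication genes in Jmjd3 KO against control 2, and all genes called in the comparisons with control 322 and 133; Uhrf1 between the knockouts had an adjusted p of 0.121, Chek1, Pold4 and Cdk6 in Jmjd3 KO 0.0894, 0.0863 and 0.0656, and Cdkn1c and Cdkn2d in Utx KO 0.062 and 0.0599.

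With 2 libraries a group, the SE of a single member had a median of 0.06. This is not the SE of the median change of -0.14 in Jmjd3 KO, because the members share libraries and are not independent. Each member had at least 379 reads in every library, and the effect of depth on the calls was not tested.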
